A study of Mus musculus with 12 samples.

Results

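The 37 genes described here encode the machinery of autophagy and of the lysosome, from the kinases that start an autophagosome to the enzymes that degrade its contents. They were taken from the deposited count table of 35496 genes by matching each listed symbol to its Ensembl gene identifier. All 37 were found, and all 37 were among the 19497 genes with enough counts to be tested. The counts come from RNA-seq of the cochlea, the coiled part of the inner ear that detects sound, in FVB/NCrl mice at postnatal day 60. The animals were awake during 30 minutes of noise, and RNA was extracted with TRIzol straight afterwards. The control group was kept at ambient sound of 70 dB SPL (decibels of sound pressure level), and the other groups were exposed to 94 or 105 dB SPL. The labels name no engineered allele and no drug in any group. Each group had 4 libraries, made with an Illumina TruSeq RNA kit from 1 µg of total RNA, 12 libraries in all. Whether a library is 1 animal or several pooled is not in the labels. The p-values therefore reflect only how far these samples vary, and that variation may be technical. The study's title places the work in hearing loss and the handling of misfolded protein, and the comparisons with 70 dB ask what each noise level did to these transcripts.

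Autophagy encloses cytoplasm, damaged organelles and protein aggregates in a double membrane and delivers them to the lysosome. The ULK kinases and the Beclin 1 lipid kinase complex start the membrane, ATG9A, ATG2 and the WIPI proteins supply and mark it, and a ubiquitin-like conjugation system attaches the ATG8 proteins (LC3 and GABARAP) to it. Cargo receptors such as p62 bind both ubiquitin and ATG8 proteins, lysosomal cathepsins and glycosidases break the cargo down, and the transcription factors TFEB and TFE3 switch on many of these genes when mTORC1 is inactive. In the cochlea, hair cells and spiral ganglion neurons are not replaced in adult mammals, and autophagy is studied there as a route for clearing damage after noise.

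Libraries held 31141706 to 42317781 counts in the 70 dB group, 32302796 to 38733490 in the 94 dB group and 32057388 to 40239711 in the 105 dB group. Mitochondrially encoded genes took 5.08 to 5.68% of counts in the 70 dB group, 2.68 to 3.59% in the 94 dB group and 4.43 to 5.35% in the 105 dB group, and 94 dB replicates 3 and 4 had the 2 lowest shares, 2.68 and 2.73%. The 37 genes together took 0.855 to 0.884% of counts in the 70 dB group, 0.882 to 0.912% in the 94 dB group and 0.840 to 0.856% in the 105 dB group. Markers of cochlear cells were present: the 11 hair cell markers summed to 168 to 196 CPM (the usual CPM scale for counts relative to library size, with the TMM factors of edgeR) and the 10 supporting cell markers to 1651 to 1774 CPM at 70 dB. Markers of marrow and bone were also present: 9 neutrophil markers summed to 7655 to 9514 CPM and 7 bone markers to 7960 to 9592 CPM at 70 dB. In such bulk tissue fewer cells of a type and less RNA per cell cannot be told apart.

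TFEB and TFE3 bind an E-box, CACGTG, which is part of the element shared by many lysosomal genes, so the start regions of the 37 genes are shown first. RefSeq promoter windows of GRCm38.p6, from 250 bases before to 50 bases after a transcription start, were found for 31 of the 37 genes. CACGTG, which reads the same on both strands, was present in the windows of 8 of the 31 genes (25.8%) and in 8.09% of all 27025 genes with a window. TCACGTGA, a longer form that contains it, was present in 3 of the 31 (9.68%) and in 1.12% of all genes. The 8 genes were Atg3, Atg5, Atg7, Lamp1, Ctsa, Ctsd, Ctsl and Gaa, with 14 matches in all, and Lamp1 had the most, 4. The stretch of 250 bases before the Lamp1 start (chr8:13158911-13159160, plus strand, E-boxes in capitals) shows them clustered near the start, with first bases at -61, -45, -28 and -15.
Lamp1: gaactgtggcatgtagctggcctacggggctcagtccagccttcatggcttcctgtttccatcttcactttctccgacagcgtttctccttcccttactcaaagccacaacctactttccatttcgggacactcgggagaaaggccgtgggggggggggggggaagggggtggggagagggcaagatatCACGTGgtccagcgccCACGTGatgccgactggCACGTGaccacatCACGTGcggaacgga

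The matches in the other 7 genes are shown with up to 10 bases on each side, 5′ to 3′ on the strand of the gene and with the E-box in capitals, so that the flanking bases can be compared. Positions count from the RefSeq start, and the base before the start is -1. Ctsd and Ctsl lie on the minus strand and the others on the plus strand.
Ctsd at -245 (chr7:142388057-142388077): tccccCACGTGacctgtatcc
Ctsd at -98 (chr7:142387910-142387935): gcccgcgtctCACGTGacccgttgag
Ctsa at -12 (chr2:164833751-164833776): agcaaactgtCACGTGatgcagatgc
Ctsa at 6 (chr2:164833768-164833793): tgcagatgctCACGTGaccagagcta
Ctsl at -236 (chr13:64370741-64370766): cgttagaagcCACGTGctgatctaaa
Gaa at -140 (chr11:119267813-119267838): tctgtgcgatCACGTGtttgactctg
Atg3 at -94 (chr16:45158725-45158750): ctccttttgtCACGTGtcctgggaga
Atg3 at -71 (chr16:45158748-45158773): agagtcgagtCACGTGaggccttagg
Atg5 at -14 (chr10:44268315-44268340): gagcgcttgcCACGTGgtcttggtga
Atg7 at -132 (chr6:114670954-114670979): tattggtggtCACGTGtgcagtaagt

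Both Ctsa matches, the Ctsd match at -98 and the Atg3 match at -71 were the longer form. A match describes the letters of these windows and is not evidence of binding. The matches of Ctsa, Ctsl and Atg7 came from windows wholly inside the annotated gene, and Ctsa also had a window without a match. Of the 13 genes that passed the test at 94 dB, 10 had a window and 1 of those, Ctsd, held the E-box. Becn1, Atg16l1 and Map1lc3a, the gene with the largest rise, had no window and were not scanned. Of the 24 that did not pass, 21 had a window and 7 held it.

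At 70 dB the 37 genes spanned a wide range of levels, compared here as CPM per kilobase of exon because only values per length can be set against each other between genes. Psap, the precursor of the saposins that help degrade sphingolipids, stood highest at 662 ± 12.4 (mean ± SD, n = 4). It was followed by the lysosomal membrane protein gene Lamp1 at 234 ± 14.0, the aspartic protease gene Ctsd at 189 ± 5.91 and the cysteine protease gene Ctsb at 189 ± 14.5, of which the last 2 did not differ beyond their spread. Among the genes of autophagosome formation, the ATG8 gene Gabarap (153 ± 8.19) and the p62 gene Sqstm1 (119 ± 6.47) were highest. The genes of initiation, membrane supply and conjugation were lower, from 2.43 ± 0.226 for Atg2b to 20.1 ± 1.18 for Atg3, and Becn1 (11.3 ± 0.262), Ulk2 (11.2 ± 0.550) and Wipi1 (11.2 ± 1.01) lay within their spread of one another. Tfeb (8.41 ± 0.766) and Tfe3 (5.41 ± 0.204) were both under 10 on this scale.

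**Figure D1:**
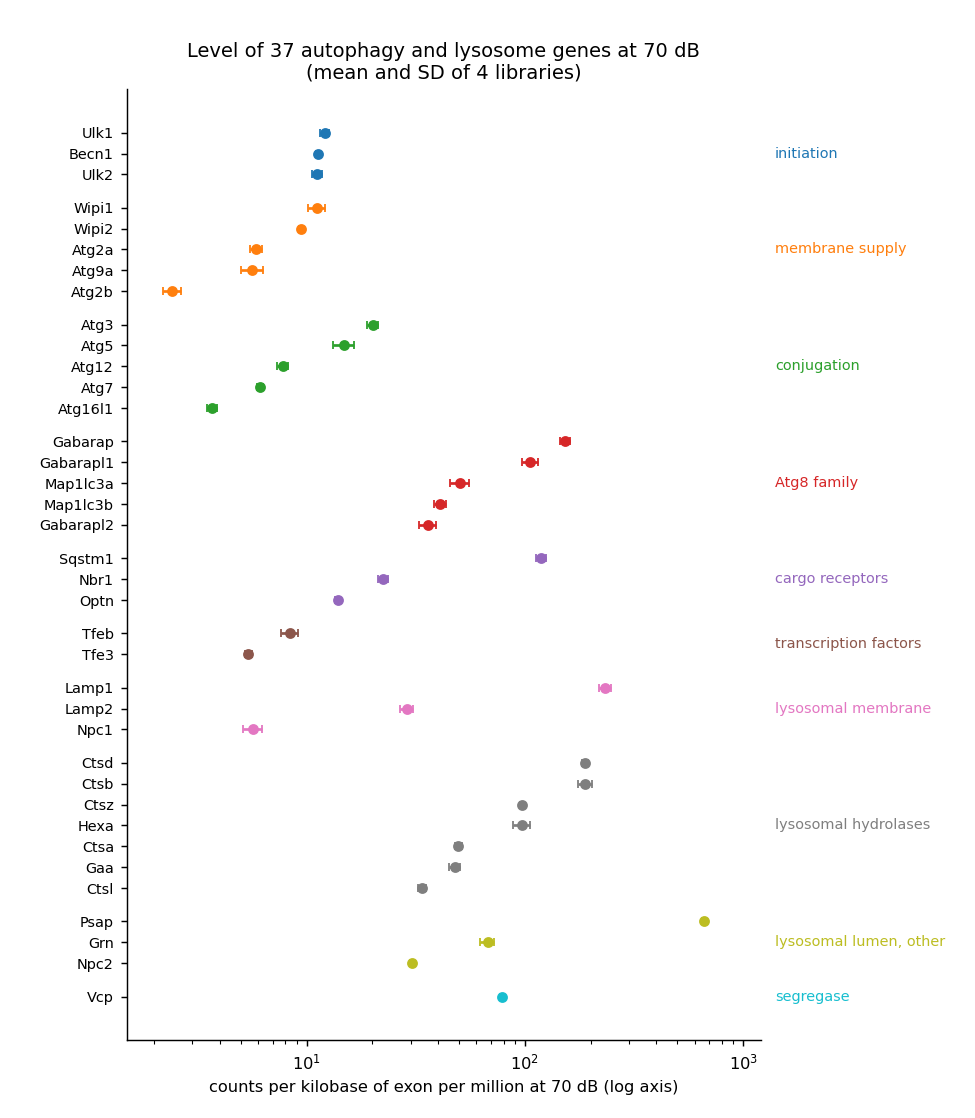
Level of each of the 37 genes at 70 dB, grouped by role, as CPM per kilobase of exon on a log axis. Points are means and bars SDs of 4 libraries. Levels run from 2.43 for Atg2b to 662 for Psap.

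In the cochlea after 94 dB noise, transcripts of 2 of the 5 ATG8 genes, of 3 lysosomal hydrolases and of the cholesterol carrier Npc2 were higher than at 70 dB, while Ulk2, Atg9a and the cargo receptor gene Nbr1 were lower. The largest rises were of Map1lc3a, which encodes LC3A, at 1.76-fold, the cathepsin D gene Ctsd at 1.49-fold and the ATG8 gene Gabarapl2 at 1.46-fold. By the quasi-likelihood test of edgeR, with Benjamini-Hochberg adjusted p-values over all 19497 genes, 13 of the 37 passed an adjusted p of 0.05 (35.1%), where 26.1% of all genes tested passed. Of the 37, 10 were higher, beside 13.9% of all genes tested, and 3 were lower, beside 12.2% of all genes tested. The median log2 fold change of the 37 genes was 0.043, beside -0.018 over all genes tested. Every 94 dB library lay above every 70 dB library in 8 of the 37 (13.0% of all genes) and below in 3 (12.3% of all genes). With a filter of 1 CPM in 4 libraries 13 of the 37 again passed, beside 5236 of 16501 genes, a larger share than in the main test. With upper-quartile factors in place of TMM, 6 were higher and 3 lower (26.5% of all genes called). With trends on GC content and exon length removed, 7 were higher and 2 lower (16.4% of all genes called). The calls of Ctsz, Hexa, Ulk2 and Nbr1 were among those that ended. Without 94 dB replicates 3 and 4 together Becn1, Map1lc3a, Gabarapl2, Ctsd and Npc2 passed, 5 of 37, all higher, beside 7.97% of the genes tested. Leaving out single libraries gave 7 to 13, with 8 without 70 dB replicate 3 or 70 dB replicate 4 and 7 without 94 dB replicate 3 or 94 dB replicate 4. Over all genes the calls also fell, from 5085 of 19497 to 3894 of 19870 and 3817 of 19817 without those 70 dB replicates. Without those 94 dB replicates they were 3495 of 19850 and 3452 of 19690.

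**Figure D2:**
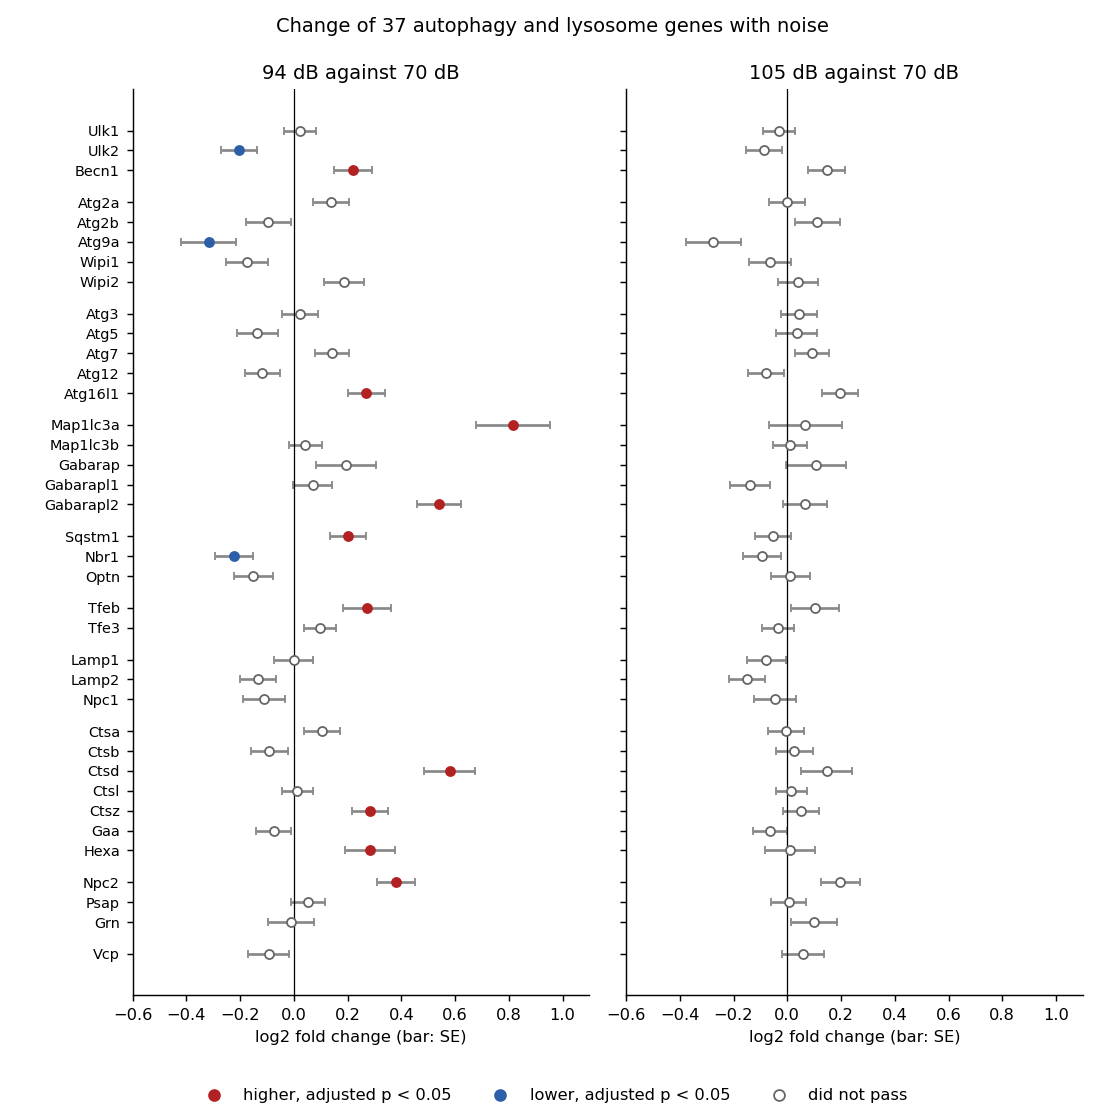
Log2 fold change of each of the 37 genes at 94 dB (left) and 105 dB (right) against 70 dB, with bars of 1 SE from the edgeR fit. Filled points have an adjusted p under 0.05: 10 are right of 0 and 3 left of it at 94 dB, and none is filled at 105 dB.

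Of the 3 initiation genes, 1 rose and 1 fell at 94 dB. Values below are TMM-scaled CPM for replicates 1, 2, 3 and 4 in that order, and positions are those of mm10 (GRCm38). Becn1 (ENSMUSG00000035086, chr11:101285952-101302286, minus strand) encodes Beclin 1, a subunit of the lipid kinase complex that nucleates the autophagosome membrane. It read 79.9, 80.8, 81.3 and 77.2 CPM at 70 dB, 100.3, 100.1, 88.1 and 83.4 CPM at 94 dB and 82.2, 86.7, 91.2 and 93.1 CPM at 105 dB. All 94 dB and all 105 dB libraries lay above all 70 dB libraries, and 94 dB replicates 1 and 2 were the highest. Becn1 rose by 0.22 on the log2 scale at 94 dB (SE 0.07, adjusted p = 0.0287), and this call ended when any 1 of 4 libraries was left out (70 dB replicates 2 or 4, or 94 dB replicates 1 or 2), with an adjusted p of 0.0505 to 0.0735 in those fits and 0.00103 to 0.0735 over all alternatives. Ulk2 (ENSMUSG00000004798, chr11:61775649-61855073, minus strand) encodes 1 of the 2 kinases that trigger autophagy. Its libraries read 62.5, 66.8, 70.5 and 67.7 CPM at 70 dB, 61.6, 58.0, 53.7 and 58.8 CPM at 94 dB and 67.5, 60.5, 59.8 and 64.0 CPM at 105 dB. The 94 dB libraries all lay below the 70 dB libraries, with replicate 3 lowest, and the 105 dB libraries overlapped both groups. Ulk2 fell by 0.20 on the log2 scale at 94 dB (SE 0.065, adjusted p = 0.0299), and this call ended when any 1 of 6 libraries was left out (70 dB replicates 2, 3 or 4, or 94 dB replicates 2, 3 or 4), with an adjusted p of 0.0545 to 0.0997 in those fits and 0.0153 to 0.267 over all alternatives. Its partner Ulk1 (ENSMUSG00000029512, chr5:110784488-110810097, minus strand) read 77.5, 83.3, 77.3 and 75.4 CPM at 70 dB, 78.7, 81.4, 82.5 and 76.2 CPM at 94 dB and 76.6, 77.4, 72.8 and 80.0 CPM at 105 dB. These 3 groups overlapped, and the log2 fold change of Ulk1 was 0.024 at 94 dB (adjusted p = 0.802).

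Among the 5 genes of membrane supply, only Atg9a passed at 94 dB. Atg9a (ENSMUSG00000033124, chr1:75180860-75192196, minus strand) encodes the lipid scramblase whose vesicles seed the autophagosome. Its values were 37.3, 33.6, 30.5 and 28.8 CPM at 70 dB, 25.5, 25.4, 26.6 and 27.1 CPM at 94 dB and 28.2, 30.5, 21.1 and 27.8 CPM at 105 dB. The 70 dB libraries spread widely, yet each lay above each 94 dB library, and the 105 dB libraries reached lowest in replicate 3. Atg9a fell by 0.32 on the log2 scale at 94 dB (SE 0.1, adjusted p = 0.0321), and this call ended when any 1 of 6 libraries was left out (70 dB replicates 1 or 2, or 94 dB replicates 1, 2, 3 or 4), with an adjusted p of 0.0552 to 0.111 in those fits and 0.0048 to 0.117 over all alternatives. Its log2 fold change at 105 dB was -0.28 (SE 0.1, adjusted p = 0.175). Wipi1 (ENSMUSG00000041895, chr11:109573331-109611967, minus strand), a phosphoinositide-binding protein of the forming membrane, had the highest level of this group per length and read 55.3, 47.7, 44.7 and 49.2 CPM at 70 dB, 45.8, 47.1, 39.0 and 42.8 CPM at 94 dB and 47.5, 49.9, 43.2 and 47.6 CPM at 105 dB. Its groups overlapped, with a log2 fold change of -0.17 at 94 dB (adjusted p = 0.114). Wipi2, which recruits the conjugation machinery, came closest to the threshold among the others, at 0.19 (adjusted p = 0.0739). The 2 lipid transfer genes of the group differed in sign at 94 dB, with 0.14 for Atg2a and -0.095 for Atg2b, and neither passed (adjusted p = 0.138 and 0.438).

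In the conjugation system, Atg16l1 alone of 5 genes rose at 94 dB. Atg16l1 (ENSMUSG00000026289, chr1:87755870-87792428, plus strand) encodes the scaffold that brings the ATG12 to ATG5 conjugate to the membrane. It read 34.5, 37.8, 35.9 and 33.5 CPM at 70 dB, 41.1, 42.9, 42.1 and 44.7 CPM at 94 dB and 43.2, 43.1, 37.4 and 38.6 CPM at 105 dB. Each 94 dB library exceeded each 70 dB library, and at 105 dB replicates 1, 2 and 4 did so too, replicate 4 narrowly. Atg16l1 rose by 0.27 on the log2 scale at 94 dB (SE 0.068, adjusted p = 0.00837) and passed without each library in turn, but not without 94 dB replicates 3 and 4 together (adjusted p = 0.0813, the highest over all alternatives, from 0.000591). At 105 dB its log2 fold change was 0.20 (SE 0.068, adjusted p = 0.148). Atg3 (ENSMUSG00000022663, chr16:45158785-45188538, plus strand), the E2-like enzyme that transfers ATG8 proteins to lipid, was the most abundant gene of the group per length and read 59.7, 62.3, 68.6 and 62.9 CPM at 70 dB, 59.1, 63.0, 65.0 and 70.4 CPM at 94 dB and 62.5, 65.8, 68.3 and 64.4 CPM at 105 dB. The Atg3 groups overlapped (log2 fold change 0.023 at 94 dB, adjusted p = 0.83). Atg7, the E1-like enzyme, came next after Atg16l1: its 94 dB libraries (44.6 to 49.1 CPM) lay above its 70 dB libraries (41.5 to 44.3 CPM), with a log2 fold change of 0.14 and an adjusted p of 0.109. Atg5 and Atg12, whose products are joined to each other, had log2 fold changes of -0.14 and -0.12 at 94 dB (adjusted p = 0.205 and 0.202).

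The ATG8 family held the gene with the largest rise. Map1lc3a (ENSMUSG00000027602, chr2:155276297-155278073, plus strand) encodes LC3A, an ATG8 protein of the LC3 branch. It read 66.6, 58.4, 52.5 and 60.8 CPM at 70 dB, 92.3, 86.1, 114 and 127 CPM at 94 dB and 70.3, 63.5, 67.9 and 48.0 CPM at 105 dB. Every 94 dB library was above every library of the other groups, and 94 dB replicates 3 and 4 were the highest. Map1lc3a rose by 0.82 on the log2 scale at 94 dB (SE 0.14, adjusted p = 0.00119), and passed under each alternative run, with a log2 fold change of 0.29 to 0.91 and an adjusted p of 8.36e-08 to 0.0315. Gabarapl2 (ENSMUSG00000031950, chr8:111940703-111953612, plus strand) belongs to the GABARAP branch, which acts at autophagosome closure and fusion. Its libraries read 75.1, 85.1, 80.2 and 92.5 CPM at 70 dB, 108, 113, 131 and 134 CPM at 94 dB and 89.7, 88.1, 89.6 and 80.9 CPM at 105 dB. Here too all 94 dB libraries exceeded all others, while the 70 and 105 dB ranges overlapped. Gabarapl2 rose by 0.54 on the log2 scale (SE 0.082, adjusted p = 0.000332) and passed under each alternative run (adjusted p 1.22e-07 to 0.00931). Gabarap (ENSMUSG00000018567, chr11:69991143-69994951, plus strand), the most abundant ATG8 gene per length, read 271, 299.9, 267 and 287 CPM at 70 dB, 255, 287, 372 and 373 CPM at 94 dB and 289, 294, 349 and 280.0 CPM at 105 dB. At 94 dB its replicates 3 and 4 lay above the 70 dB range and replicate 1 below it, and the log2 fold change of 0.19 (SE 0.11) did not pass (adjusted p = 0.211). Map1lc3b, which encodes the LC3B protein commonly used as an autophagosome marker, and Gabarapl1 had log2 fold changes of 0.043 and 0.07 at 94 dB (adjusted p = 0.649 and 0.52).

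The 3 cargo receptor genes did not move together at 94 dB. Sqstm1 (ENSMUSG00000015837, chr11:50199366-50210827, minus strand) encodes p62, which links ubiquitinated protein to ATG8 proteins and is itself degraded by autophagy. Its libraries read 378, 400.1, 387 and 428 CPM at 70 dB, 437, 425, 477 and 494 CPM at 94 dB and 385, 372, 384 and 394 CPM at 105 dB. The highest 70 dB library, replicate 4, reached into the 94 dB range, and all 105 dB libraries lay below all 94 dB libraries. Sqstm1 rose by 0.20 on the log2 scale at 94 dB (SE 0.067, adjusted p = 0.0365), and this call ended when any 1 of 6 libraries was left out (70 dB replicates 1, 2 or 3, or 94 dB replicates 3 or 4, or 105 dB replicate 2), with an adjusted p of 0.0526 to 0.112 in those fits and 0.0119 to 0.364 over all alternatives. Nbr1 (ENSMUSG00000017119, chr11:101552149-101581951, plus strand) encodes a receptor of similar build that binds ubiquitin and ATG8 proteins. It read 150.3, 148, 165 and 152 CPM at 70 dB, 143, 143, 122 and 120.0 CPM at 94 dB and 141, 146, 145 and 146 CPM at 105 dB. All 94 dB and all 105 dB libraries were below all 70 dB libraries, with 94 dB replicates 3 and 4 the lowest. Nbr1 fell by 0.22 on the log2 scale at 94 dB (SE 0.07, adjusted p = 0.0289), and this call ended when any 1 of 4 libraries was left out (70 dB replicates 3 or 4, or 94 dB replicates 3 or 4), with an adjusted p of 0.0571 to 0.104 in those fits and 0.0137 to 0.379 over all alternatives. Optn, which encodes the receptor optineurin, had a log2 fold change of -0.15 at 94 dB (adjusted p = 0.141).

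Tfeb (ENSMUSG00000023990, chr17:47737030-47792419, plus strand) encodes the transcription factor for which the lysosomal E-box element is best known. It read 45.9, 53.8, 47.3 and 43.7 CPM at 70 dB, 51.6, 52.2, 64.0 and 62.6 CPM at 94 dB and 50.3, 50.8, 57.0 and 46.9 CPM at 105 dB. At 94 dB replicates 3 and 4 were above all 70 dB libraries, and replicates 1 and 2 were within the 70 dB range. Tfeb rose by 0.27 on the log2 scale at 94 dB (SE 0.089, adjusted p = 0.033), but its log2 fold change was -0.047 (adjusted p = 0.751) once trends on GC content and exon length were removed, and this call ended when any 1 of 5 libraries was left out (70 dB replicates 1, 3 or 4, or 94 dB replicates 3 or 4), with an adjusted p of 0.0637 to 0.111 in those fits and 0.0144 to 0.751 over all alternatives. Tfe3, its relative, had a log2 fold change of 0.099 (adjusted p = 0.24). TFEB and TFE3 are controlled mainly by their phosphorylation and movement into the nucleus, which transcript counts do not measure.

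None of the 3 lysosomal membrane genes passed at 94 dB. Lamp1 (ENSMUSG00000031447, chr8:13159161-13175338, plus strand), which encodes the major glycoprotein of the lysosomal membrane, read 570.2, 655, 635 and 638 CPM at 70 dB, 567, 603, 642 and 686 CPM at 94 dB and 593, 578, 577 and 621 CPM at 105 dB. The groups overlapped throughout, and the log2 fold change was -0.00073 at 94 dB (SE 0.072, adjusted p = 0.996). Lamp2, a related glycoprotein with a role in chaperone-mediated autophagy, and Npc1, the cholesterol exporter, had log2 fold changes of -0.13 and -0.11 at 94 dB (adjusted p = 0.155 and 0.323).

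Of the 7 hydrolase genes, 3 rose at 94 dB and none fell. Ctsd (ENSMUSG00000007891, chr7:142375911-142388038, minus strand) encodes cathepsin D, the main aspartic protease of the lysosome. Its libraries read 442, 465, 439 and 433 CPM at 70 dB, 571, 600.0, 715 and 775 CPM at 94 dB and 506, 514, 525 and 426 CPM at 105 dB. All 94 dB libraries were above all libraries of the other groups, replicates 3 and 4 most, and 3 of the 4 libraries at 105 dB lay above the 70 dB range. Ctsd rose by 0.58 on the log2 scale at 94 dB (SE 0.094, adjusted p = 0.000543) and passed under each alternative run (adjusted p 2.23e-07 to 0.0113). Ctsz (ENSMUSG00000016256, chr2:174427493-174439039, minus strand) encodes cathepsin Z, a cysteine carboxypeptidase. It read 143, 142, 139 and 136 CPM at 70 dB, 166, 168, 178 and 171 CPM at 94 dB and 145, 136, 164 and 137 CPM at 105 dB. Each 94 dB library exceeded every library of the other groups, with the smallest gap to 105 dB replicate 3. Ctsz rose by 0.28 on the log2 scale (SE 0.067, adjusted p = 0.00584) and passed without each library in turn, but not without 94 dB replicates 3 and 4 together (adjusted p = 0.0596), and its log2 fold change was -0.043 (adjusted p = 0.683) once trends on GC content and exon length were removed. Hexa (ENSMUSG00000025232, chr9:59539540-59565109, plus strand) encodes the alpha subunit of beta-hexosaminidase, which degrades gangliosides. Its values were 172, 214, 189 and 197 CPM at 70 dB, 206, 216, 249.5 and 268 CPM at 94 dB and 178, 186, 218 and 195 CPM at 105 dB. At 94 dB replicates 3 and 4 were above all 70 dB libraries, replicate 2 was just above them, and replicate 1 was within their range. Hexa rose by 0.28 on the log2 scale (SE 0.092, adjusted p = 0.0328), and this call ended when any 1 of 5 libraries was left out (70 dB replicates 1, 3 or 4, or 94 dB replicates 3 or 4), with an adjusted p of 0.0511 to 0.118 in those fits and 0.0116 to 0.591 over all alternatives. The other 4 genes had log2 fold changes from -0.091 to 0.10 at 94 dB: Ctsa and Ctsl, which encode a serine carboxypeptidase and a cysteine protease, and Ctsb and Gaa, the acid glucosidase that degrades glycogen. Ctsa came nearest to the threshold of the 4 (adjusted p = 0.271).

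Npc2 (ENSMUSG00000021242, chr12:84754562-84773152, minus strand) encodes the soluble carrier that hands cholesterol to NPC1 in the lysosome. It read 169, 163, 168 and 162 CPM at 70 dB, 208, 217, 213 and 223 CPM at 94 dB and 191, 188, 215 and 166 CPM at 105 dB. The 94 dB libraries were tightly grouped above all 70 dB libraries, and the 105 dB libraries spread from the 70 dB to the 94 dB range. Npc2 rose by 0.38 on the log2 scale at 94 dB (SE 0.071, adjusted p = 0.00147) and passed under each alternative run (log2 fold change 0.35 to 0.41, adjusted p 6.37e-06 to 0.0199). Psap (ENSMUSG00000004207, chr10:60277627-60302597, plus strand), whose saposin products present lipids to the hydrolases, read 1829, 1812, 1855 and 1774 CPM at 70 dB, 1966, 1833, 1773 and 1967 CPM at 94 dB and 1848, 1827, 1848 and 1769 CPM at 105 dB. Its 3 groups overlapped, with a log2 fold change of 0.053 at 94 dB (adjusted p = 0.589). Grn, the gene of the lysosomal protein progranulin, had a log2 fold change of -0.01 (adjusted p = 0.941), with 94 dB replicates 1 and 2 at 261 and 259 CPM and replicates 3 and 4 at 206 and 204 CPM. Vcp (ENSMUSG00000028452, chr4:42979963-43000507, minus strand) encodes the ATPase that extracts ubiquitinated protein from complexes and membranes and helps clear damaged lysosomes. It read 378, 376, 381 and 392 CPM at 70 dB, 400.2, 382, 320.3 and 327 CPM at 94 dB and 406, 415, 407 and 362 CPM at 105 dB. As for Grn, 94 dB replicates 3 and 4 were below replicates 1 and 2, the groups overlapped, and Vcp did not pass (log2 fold change -0.094, adjusted p = 0.399).

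**Figure D3:**
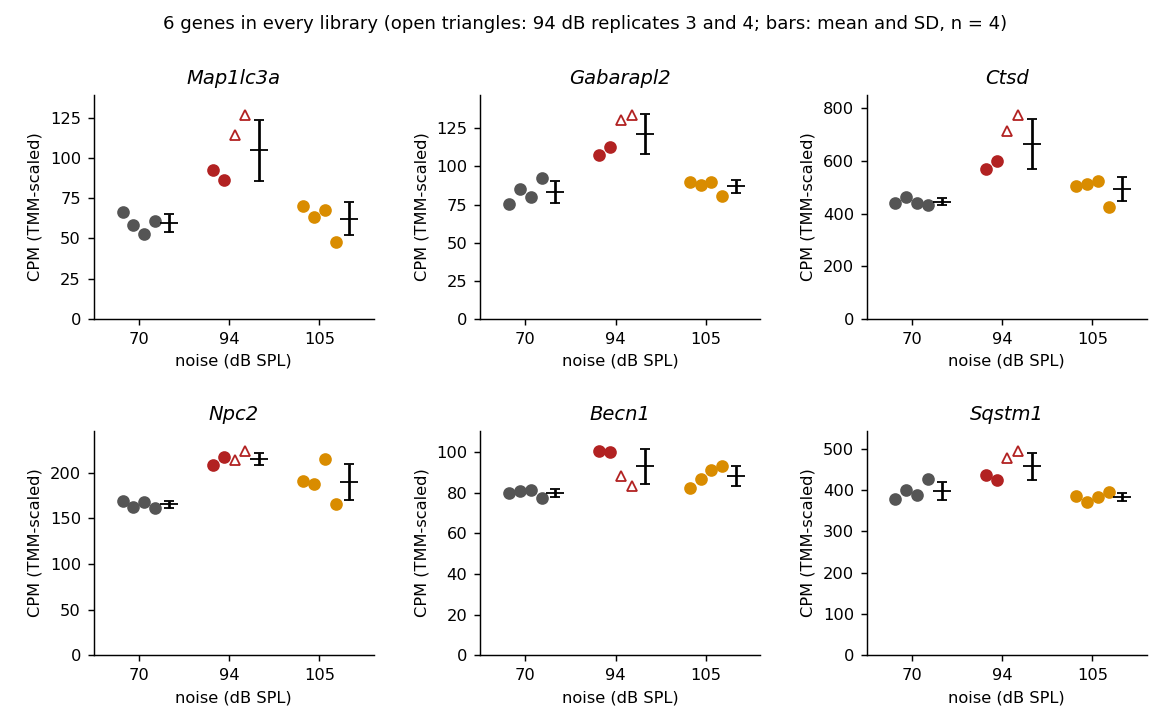
TMM-scaled CPM of 6 genes in every library at 70, 94 and 105 dB, with mean and SD of 4 libraries beside the points and open triangles for 94 dB replicates 3 and 4. All 94 dB libraries lie above all 70 dB libraries in Map1lc3a, Gabarapl2, Ctsd, Npc2 and Becn1, while Sqstm1 overlaps.

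After 105 dB noise no transcript of the 37 genes passed the test against the same 70 dB libraries. By the same edgeR test 0 of 37 passed (0%), where 1.62% of all genes tested did, 1.11% higher and 0.508% lower. DESeq2 also called 0 of 37, beside 4.58% of all genes. The smallest adjusted p in edgeR were those of Atg16l1 (0.20 on the log2 scale, adjusted p = 0.148) and Npc2 (0.20, adjusted p = 0.165). Atg9a (-0.28, adjusted p = 0.175) and Lamp2 (-0.15, adjusted p = 0.247) came next. The median log2 fold change was 0.011, beside -0.0039 over all genes, and values ran from -0.28 for Atg9a to 0.20 for Npc2. The groups did not overlap in 1 gene that was higher at 105 dB, Becn1 (5.78% of all genes), and in 1 that was lower, Nbr1 (5.03% of all genes). For Becn1 the log2 fold change was 0.15 (SE 0.07, adjusted p = 0.271) and for Nbr1 -0.093 (SE 0.07, adjusted p = 0.498). For the genes with the largest rises at 94 dB, the 105 dB log2 fold changes were 0.067 (SE 0.14) for Map1lc3a, 0.065 (SE 0.082) for Gabarapl2 and 0.15 (SE 0.094) for Ctsd. A p that misses the threshold does not show that these values did not differ from 70 dB.

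The noise groups were then compared with each other. Map1lc3a, Gabarapl2, Sqstm1, Ctsd and Ctsz were lower at 105 dB than at 94 dB, and none of the 37 passed as higher. Alternatives called 1 gene higher: Gaa with GC and length trends removed (0.24, adjusted p = 0.0161), Atg2b without 94 dB replicate 1 (adjusted p = 0.0487) and Optn without 94 dB replicate 2 (adjusted p = 0.0407). The log2 fold change of 105 against 94 dB was -0.75 for Map1lc3a (SE 0.14, adjusted p = 0.00428), -0.48 for Gabarapl2 (SE 0.082, adjusted p = 0.00236) and -0.43 for Ctsd (SE 0.094, adjusted p = 0.0067). For Sqstm1 it was -0.26 (SE 0.067, adjusted p = 0.0168) and for Ctsz -0.23 (SE 0.067, adjusted p = 0.0255). All 105 dB libraries lay below all 94 dB libraries in each of the 5. These 5 of 37 (13.5%) stand beside 17.3% of all genes called and, by direction, 8.06% higher and 9.23% lower. Gabarapl1 was the 6th gene whose 105 dB libraries all lay below its 94 dB libraries (10.8% of all genes), at -0.21 (adjusted p = 0.0608), and Hexa came closest to the threshold of those not called (-0.27, adjusted p = 0.0505). In the other direction, Atg2b, Atg5 and Ctsb had all 105 dB libraries above all 94 dB libraries (10.5% of all genes) and did not pass (adjusted p = 0.102, 0.136 and 0.263). Without 94 dB replicates 3 and 4 together 0 of the 37 passed (1.07% of the genes tested), with adjusted p of 0.0702 for Map1lc3a, 0.0611 for Gabarapl2 and 0.143 for Ctsd. DESeq2's Wald test called 8 (21.3% of all genes). Leaving out single libraries gave 3 to 8: 8 without 94 dB replicate 1, and 3 without 94 dB replicate 3, 94 dB replicate 4 or 105 dB replicate 2. Over all genes the calls in these fits, in that order, were 3798 of 19874, 1650 of 19850, 1860 of 19690 and 2057 of 19871. The main fit called 3372 of 19497. For Sqstm1 this call ended when any 1 of 3 libraries was left out (94 dB replicates 3 or 4, or 105 dB replicate 2), with an adjusted p of 0.0582 to 0.0594 in those fits and 0.00147 to 0.238 over all alternatives. For Ctsz this call ended when any 1 of 5 libraries was left out (94 dB replicates 3 or 4, or 105 dB replicates 1, 2 or 4), with an adjusted p of 0.0559 to 0.0886 in those fits and 0.00469 to 0.96 over all alternatives, and its log2 fold change was -0.015 with GC and length trends removed.

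GC content and length of the transcripts moved with the fold changes at 94 dB. Across the 37 genes the log2 fold change at 94 dB had a Spearman correlation of 0.375 with GC content and -0.331 with exon length, and across 14943 well-counted genes the values were 0.525 and -0.352. These are descriptions across genes, which share libraries and are not independent replicates. The median GC content was 54.5% for the 10 genes that were higher, 47.7% for the 3 that were lower and 51.6% for the 24 that did not pass. When smooth trends on GC content and exon length were removed in each library, 9 of the 37 passed at 94 dB (16.4% of all genes), 7 higher and 2 lower. Becn1, Atg16l1, Map1lc3a, Gabarapl2, Ctsd, Npc2 and Atg9a kept their calls, with Map1lc3a at 0.29 in place of 0.82 and Ctsd at 0.36 in place of 0.58. The calls of Ulk2, Sqstm1, Nbr1, Tfeb, Ctsz and Hexa ended, with adjusted p from 0.148 for Nbr1 to 0.751 for Tfeb. Atg3 (0.19, adjusted p = 0.0498) and Gaa (-0.29, adjusted p = 0.00328) passed only with the trends removed. At 105 against 94 dB 5 passed with the trends removed (9.90% of all genes). These were Map1lc3a (-0.35), Gabarapl2 (-0.56), Ctsd (-0.27) and Lamp2 (-0.21, adjusted p = 0.0263), all lower, and Gaa, higher, so that 3 of the 5 genes called without removal remained. At 105 against 70 dB the correlations across the 37 genes were 0.0249 with GC content and -0.106 with length, and 0 passed with the trends removed (1.79% of all genes).

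**Figure D4:**
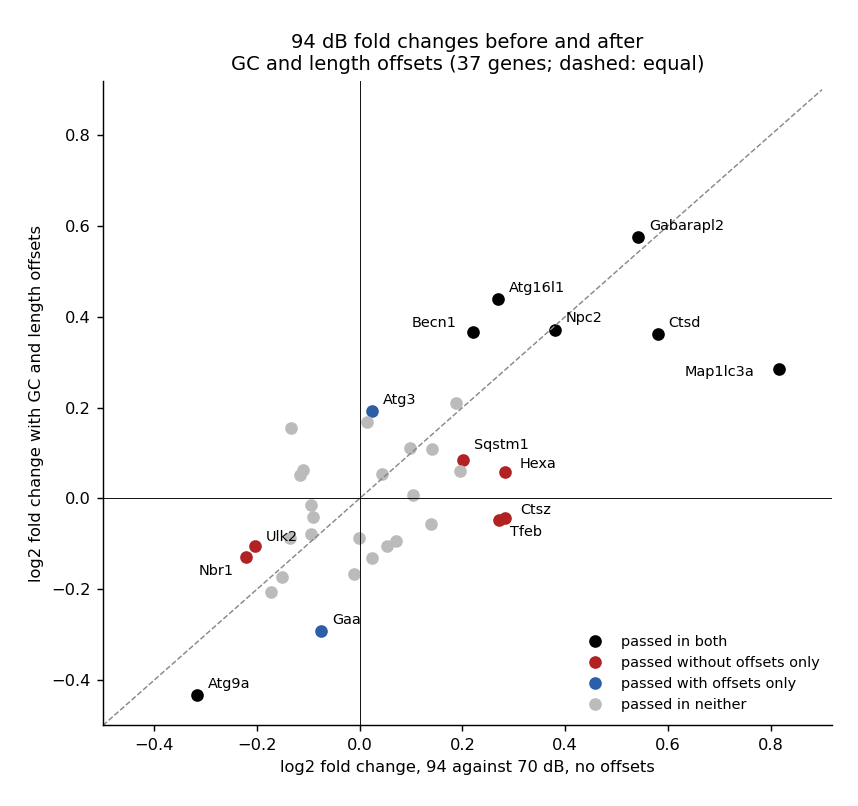
Log2 fold change of the 37 genes at 94 dB against 70 dB without (horizontal) and with (vertical) removal of trends on GC content and exon length, with colours for the settings in which each gene passed an adjusted p of 0.05. Of the 13 genes called without it 7 remained, and Tfeb and Ctsz moved from above 0 to just below it.

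Lysosomal genes are abundant in macrophages and osteoclasts, so markers of these cells are given beside the hydrolases. The 14 macrophage markers summed to 667 to 767 CPM at 70 dB, 776 to 975 CPM at 94 dB and 724 to 804 CPM at 105 dB, with none at 0. Of the 14, 6 were higher and 1 lower at 94 dB (50%, beside 26.1% of all genes), and 1 was higher and 1 lower at 105 dB (14.3%, beside 1.62%). The 9 osteoclast markers, none at 0, summed to 716 to 851, 842 to 923 and 750 to 811 CPM at 70, 94 and 105 dB, with 1 higher and 1 lower at 94 dB (22.2%, beside 26.1%). The osteoclast list shares genes with the further hydrolases described below, with the same median (0.0019) and highest (0.39) log2 fold change at 94 dB. Neutrophil markers summed to 7655 to 9514, 7869 to 15413 and 8449 to 10006 CPM, and 4 of 9 were higher and none lower at 94 dB (44.4%). Beside this, 26.1% of all genes were called in either direction and 13.9% as higher. Erythroid markers summed to 18213 to 22350, 18894 to 32503 and 22360 to 31485 CPM, and 2 of 8 were higher and 1 lower at 94 dB (37.5%). Hair cell markers summed to 168 to 196, 184 to 190 and 173 to 180 CPM, and supporting cell markers to 1651 to 1774, 1285 to 1498 and 1586 to 1719 CPM. At 94 dB 1 of 11 hair cell markers was higher (9.09%), and of 10 supporting cell markers 2 were higher and 4 lower (60%). Fibrocyte markers had the highest share called at 94 dB of the lists, with 1 of 6 higher and 3 lower (66.7%). The part of these cell types in the rises of Ctsd, Ctsz, Hexa and Npc2 was not tested.

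Counting can affect some of these values, because the use of strand and of reads with several alignments is not given in the sources used here. Becn1 shares 3104 exon bases with Cntd1 on the other strand, and Cntd1 had 415 counts in all libraries against 37595 for Becn1. Atg9a shares 46 bases with Ankzf1, which had 11164 counts against 12475, and 1832 bases with the model Gm29253, which had 6. Sqstm1 shares exon bases with Mrnip, Hexa with Tmem202, Ctsz with Nelfcd, Ctsa with Pltp, Ctsb with Fdft1 and Lamp1 with Grtp1, so these 6 are uncertain to that extent. Atg2b shares 383 bases with Gskip, which had 14117 counts against 14213, Npc1 shares 511 bases with Rmc1, which had 21074 against 26926, and Map1lc3b shares 58 bases with Zcchc14, which had 24351 against 134244. Gabarapl1, Optn, Grn and Vcp also overlap a gene on the other strand. Gabarapl2, Map1lc3b and Vcp have processed copies at 96.1% identity or more, none of which held over 0.454% of the counts of its parent gene.

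Other genes of the same pathways came from 9 lists of 130 symbols, of which 129 were matched and tested. At 94 dB 46 of the 129 passed (35.7%, beside 26.1% of all genes), 27 higher and 19 lower, with a median log2 fold change of 0.0051. Under the filter of 1 CPM in 4 libraries 50 of the 129 passed, beside 5236 of 16501 genes. Against the same 70 dB libraries 2 passed at 105 dB (1.55%, beside 1.62%), both higher, and 105 dB against 94 dB gave 13 higher and 21 lower (26.4%, beside 17.3%). Without 94 dB replicates 3 and 4 together, 10 passed at 94 dB, 6 higher and 4 lower, which is 7.75% beside 7.97% of all genes. With GC and length trends removed 21 were higher and 14 lower (27.1%, beside 16.4%).

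The mTORC1 and MiT/TFE list held the largest change, with 7 of 18 genes higher and 2 lower at 94 dB (50%, beside 26.1% of all genes). At 105 dB 2 were higher and none lower (11.1%, beside 1.62% of all genes called in either direction). Ddit4 (ENSMUSG00000020108, chr10:59949669-59951834, minus strand) encodes REDD1, a stress-induced inhibitor of mTORC1, the kinase complex that restrains autophagy. It read 25.5, 24.7, 28.5 and 26.7 CPM at 70 dB, 189, 298, 347 and 318 CPM at 94 dB and 182, 176, 145 and 163 CPM at 105 dB. No group overlapped another, and 94 dB replicate 1 was close to the highest 105 dB library. Ddit4 rose by 3.45 on the log2 scale at 94 dB (SE 0.16, adjusted p = 2.14e-07) and by 2.66 at 105 dB (SE 0.16, adjusted p = 1.06e-06). Foxo3 (ENSMUSG00000048756, chr10:42181841-42276755, minus strand), a transcription factor with autophagy genes among its targets, read 112, 128, 124 and 113 CPM at 70 dB, 129, 128, 116 and 121 CPM at 94 dB and 141, 157, 150.1 and 153 CPM at 105 dB. All 105 dB libraries lay above those of the other groups, which overlapped each other. Foxo3 rose by 0.33 on the log2 scale at 105 dB (SE 0.066, adjusted p = 0.0148), and this call ended when any 1 of 2 libraries was left out (70 dB replicate 4, or 105 dB replicate 2), with an adjusted p of 0.0578 to 0.0735 in those fits and 0.000148 to 0.0735 over all alternatives. At 94 dB its log2 fold change was 0.052 (adjusted p = 0.602), and it was higher at 105 than at 94 dB by 0.28 (adjusted p = 0.00958). The latter call of Foxo3 ended without 94 dB replicates 3 and 4 together (adjusted p = 0.151). Lamtor1, a subunit of the Ragulator complex that anchors mTORC1 to the lysosome, went from 68.1 ± 4.48 to 94.8 ± 15.7 CPM at 94 dB (SD, n = 4, log2 fold change 0.48, adjusted p = 0.00302), and did not pass without 94 dB replicates 3 and 4 together (adjusted p = 0.0729).

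**Figure D5:**
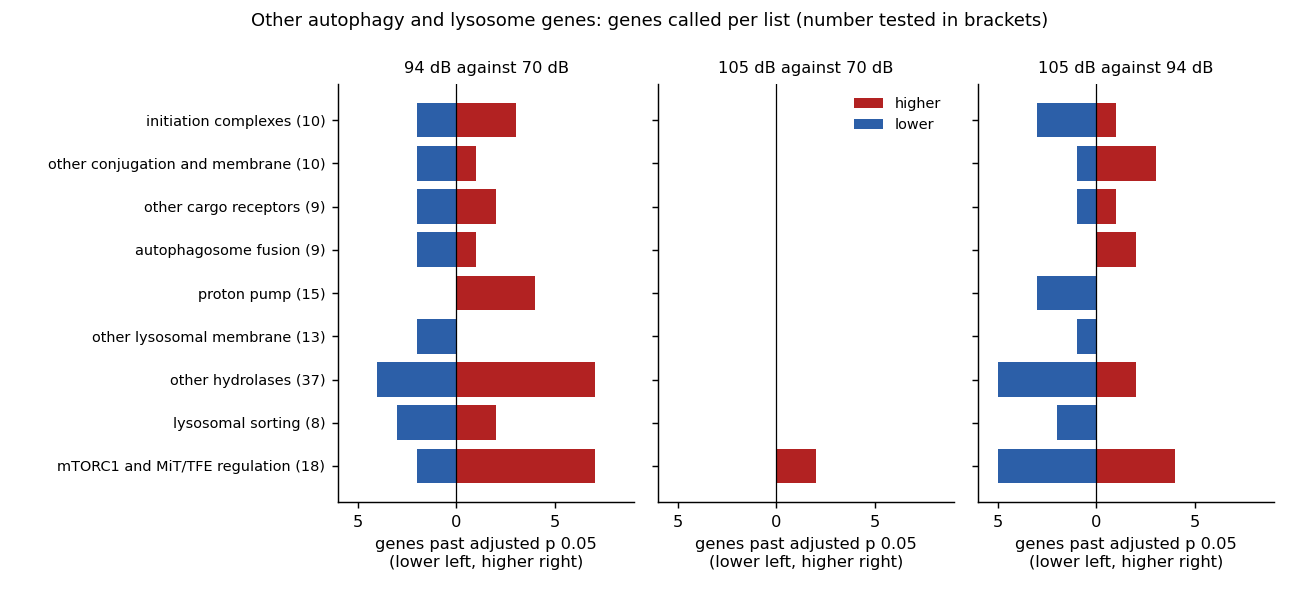
Number of genes past an adjusted p of 0.05 in each of the 9 further pathway lists, higher to the right in red and lower to the left in blue, for 3 comparisons, with the number tested in brackets. In the comparison of 105 with 70 dB only the mTORC1 and MiT/TFE list holds called genes, 2 of 18 (11.1%, beside 1.62% of all genes).

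Genes upstream of the autophagosome changed in both directions at 94 dB. The share called in each list is to be read against 26.1% of all genes. Of 10 initiation complex genes 3 were higher and 2 lower (50%): Atg101, a subunit of the ULK1 complex, went from 23.8 ± 2.34 to 34.6 ± 6.12 CPM (SD, n = 4, log2 fold change 0.54, adjusted p = 0.00314). Rb1cc1, the scaffold of the same complex, went from 81.1 ± 9.0 to 61.1 ± 2.71 CPM (-0.41, adjusted p = 0.00173), and neither passed with GC and length trends removed (adjusted p = 0.0977 and 0.319). Atg101 also did not pass without 94 dB replicates 3 and 4 together (adjusted p = 0.0892). Of 10 further conjugation and membrane genes 1 was higher and 2 lower (30%). Atg4d, a protease that processes ATG8 proteins, went from 40.5 ± 2.35 CPM at 70 dB to 68.5 ± 12.4 at 94 dB and 44.1 ± 4.46 at 105 dB. Its log2 fold change at 94 dB was 0.76 (SE 0.11, adjusted p = 0.000324) and it passed under each alternative run. Atg10, the E2-like enzyme for ATG12, went from 9.82 ± 0.957 to 7.47 ± 0.733 CPM (-0.39, adjusted p = 0.0153), and this call ended when any 1 of 2 libraries was left out (70 dB replicate 4, or 94 dB replicate 4), with an adjusted p of 0.0553 to 0.0576 in those fits and 0.00496 to 0.187 over all alternatives. Among 9 further cargo receptors 2 were higher and 2 lower (44.4%). Tex264, a receptor for the endoplasmic reticulum, had a log2 fold change of 0.36 (adjusted p = 0.00214), and Tax1bp1, a ubiquitin-binding receptor, of -0.39 (adjusted p = 0.00348). With GC and length trends removed their adjusted p were 0.503 and 0.229, and that of Tax1bp1 was 0.0589 without 94 dB replicates 3 and 4 together.

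Downstream, genes of fusion and of the lysosome also divided at 94 dB. Of 9 fusion genes 1 was higher and 2 lower (33.3%, beside 26.1% of all genes). Vamp8, a SNARE protein of the fusion step, read 70.7, 70.4, 64.9 and 67.5 CPM at 70 dB and 85.1, 93.3, 132 and 132 at 94 dB, highest in replicates 3 and 4 (0.69, adjusted p = 0.00543, and 0.0543 without those replicates). Vps41, a subunit of the HOPS tether, went from 101 ± 6.08 to 79.2 ± 6.91 CPM (SD, n = 4, log2 fold change -0.35, adjusted p = 0.00187). In the proton pump that acidifies the lysosome 4 of 15 genes were higher and none lower (26.7%, close to the share of all genes), with Atp6v1g1 at 0.46 (adjusted p = 0.000993) and Atp6v0b at 0.55 (adjusted p = 0.0131). The Atp6v0b call ended with GC and length trends removed (adjusted p = 0.0539) and without 94 dB replicates 3 and 4 together (0.25, adjusted p = 0.177). Of 13 further membrane genes 2 were lower and none higher (15.4%). These were Tmem175, a lysosomal ion channel, at -0.44 (adjusted p = 0.00129) and Ctns, the cystine exporter, at -0.29 (adjusted p = 0.00481, and 0.0636 without 94 dB replicates 3 and 4). Among 37 further hydrolases 7 were higher and 4 lower (29.7%). Pla2g15, a lysosomal phospholipase, went from 36.3 ± 1.33 to 46.3 ± 1.62 CPM (0.35, adjusted p = 0.000585) and Tpp1, a serine protease, from 173 ± 9.37 to 131 ± 11.3 CPM (-0.40, adjusted p = 0.0014). Of 8 sorting genes 2 were higher and 3 lower (62.5%). The 2 that were higher act on the mannose 6-phosphate tag of lysosomal enzymes: Gnptg (0.42, adjusted p = 0.0101) and Nagpa (0.32, adjusted p = 0.00438), the latter with an adjusted p of 0.997 with GC and length trends removed. Without 94 dB replicates 3 and 4 together neither passed (Gnptg 0.14, adjusted p = 0.247, and Nagpa adjusted p = 0.0877).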

How the data were processed

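RNA-seq counts per gene were deposited by the authors as 1 table of 12 libraries, 4 per noise level, with no normalization. CASAVA, STAR and featureCounts 1.5.0-p3 with the build mm10 are named in the submitters' processing notes; the annotation, the strand setting and the treatment of multiply aligned reads were not given in the sources used here. GENCODE M21 gave symbols for 35474 of 35496 genes. Groups came from the sample titles. Genes were filtered with filterByExpr (minimum count 10, 99.9% of counts kept) and scaled by TMM factors. Each comparison used edgeR 4.0.16's quasi-likelihood test with Benjamini-Hochberg adjustment over all 19497 genes in 1 fit of all 12 libraries (9 residual degrees of freedom). Totals of 31141706 to 42317781 counts put 3 counts at 0.0702 to 0.0965 CPM, a limit for counting error only. The code was tested on simulated data.

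The 37 members and the other lists were chosen with earlier results of these data known. Per-library values were given for the 12 called genes of smallest adjusted p and for the highest gene per length of each role, and values for the nearest uncalled gene of each role; from each further list, the 2 called genes of smallest adjusted p per comparison with 70 dB were named. Alternatives were DESeq2 1.42.0 (size factors, Wald test), upper-quartile factors, other filters, 8-library fits, a replicate block, a block on code numbers (chosen after seeing the data), offsets on GC content and length (mgcv 1.9.3), and left-out libraries. Standard errors were the log2 fold change over the square root of the F statistic. Neither replicate numbers nor the code numbers of the titles were treated as pairs in the main test, and blocks on each were run as alternatives. Most pairs with the same code deviated together (7 of 10 with a correlation over 0.1), so a fit without that block may misstate the spread.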

Additional observations from a re-analysis of the deposited data

Results flagged for a closer look

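Among the 111 groups of 4 libraries (37 genes at 3 noise levels), 2 groups held 1 library that stood apart from the other 3 by Dixon's test. As chance gives about 1 group in 20, more than 2 flagged groups would be expected by chance alone. Atg5 read 33.6 CPM in 105 dB replicate 2 and 36.4 CPM in each of the other 3 libraries. Lamp2 read 246 CPM in 70 dB replicate 1 and 280.0 to 286 CPM in the others.

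The change from 70 dB differed between the noise levels, by the direct edgeR comparison of 105 with 94 dB, in 5 genes, all lower at 105 dB in 4 of 4 libraries. The log2 differences were -0.75 for Map1lc3a, -0.48 for Gabarapl2, -0.26 for Sqstm1, -0.43 for Ctsd and -0.23 for Ctsz. The share called, 5 of 37 (13.5%), was below the 17.3% of all genes called. None of the 5 calls held in every setting. Without 94 dB replicates 3 and 4 together 0 of the 37 passed (1.07% of the genes tested).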

How the results depend on the processing

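At 105 against 70 dB, 0 of the 37 genes passed in every setting run. At 94 against 70 dB the count of 13 (26.1% of all genes called) became 7 to 13 with single libraries left out. It was 5 without 94 dB replicates 3 and 4 together (7.97% of all genes called). With upper-quartile factors it was 9 (26.5% of all genes called) and with GC and length offsets 9 (16.4%). With no filter it was 10, and in the 8-library fit 10. Over all genes, no filter gave 4414 calls of 34758 and the 8-library fit 4288 of 19133. At 105 against 94 dB GC and length offsets gave 1 higher and 4 lower (9.90% of all genes called), 3 of them among the 5. Of the 13 calls, 6 held without each single library and 4 in every setting. Tfeb reversed to -0.047 with GC and length offsets and to -0.042 with these and the replicate block, and Ctsz to -0.043 and -0.045; the cause was not tested. At 105 against 94 dB the count of 5 became 8 with DESeq2's Wald test (21.3% of all genes called). It was 3 to 8 with single libraries left out and 0 without 94 dB replicates 3 and 4 together (1.07%). For the further pathway genes, 46 became 34 to 49 and 10 (7.75%, beside 7.97% of all genes) in those last 2 settings at 94 dB. There, 2 became 1 to 2 with single libraries left out at 105 against 70 dB. At 105 against 94 dB, 34 became 21 with GC and length offsets (16.3%, beside 9.90% of all genes). The count was 19 to 40 with single libraries left out and 3 without both (2.33%, beside 1.07% of all genes). Single libraries left out also moved the calls over all 19641 to 19874 genes tested. These were 3452 to 5409 at 94 against 70 dB, 126 to 399 at 105 against 70 dB and 1650 to 3798 at 105 against 94 dB.

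With the replicate block the counts for the 37 genes were 13, 0 and 6 at 94 against 70, 105 against 70 and 105 against 94 dB, and 46, 2 and 35 for the further genes. Over all 19497 genes that fit called 5084, 479 and 3366. The titles also carry code numbers, which match the replicate numbers except that 105 dB replicates 3 and 4 have codes 4 and 5. A block on the codes, chosen after seeing the data, leaves 105 dB replicate 4 alone in its block. It gave 12, 0 and 3 for the 37 genes and 46, 2 and 16 for the further genes, beside 4996, 346 and 1414 of all 19497 genes. Without a block the calls over all genes were 5085, 316 and 3372. With GC and length offsets the block on the codes gave 10, 0 and 1, and 34, 2 and 9, with Tfeb at -0.045 and Ctsz at -0.045. Over all 19497 genes that fit called 3235, 373 and 621. Correlations of deviations were over 0.1 in 5 of 12 pairs with the same replicate number (range -0.31 to 0.32), beside 7 of 36 pairs with other replicate numbers. They were over 0.1 in 7 of 10 pairs with the same code (range -0.077 to 0.32), so most but not all same-code pairs deviated together. Of 24 best matches, 12 were to the same replicate number. What the codes stand for is not in the labels. Depth limits little here, since the lowest of the 37 genes was counted far above 3 reads in each library; the spread between 4 libraries sets the precision.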

Other observations

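In the 94 dB group, replicates 3 and 4 had the lower mitochondrial shares, and a comparison of them with replicates 1 and 2 was chosen after these values were seen. Both lay above replicates 1 and 2 in 18 of the 37 genes (48.6%), among them Lamp1, Ctsd, Sqstm1, Gabarap, Hexa, Tfeb and Map1lc3a, and below them in 8 (21.6%), among them Vcp, Grn, Nbr1 and Becn1. Over all 16265 genes with a mean of at least 1 CPM the shares were 26.1% and 27.0%. These are descriptions of 4 libraries, with no test.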
